A study of Sus scrofa with 6 samples.

Results

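The genes described here encode axon guidance ligands and receptors, measured by RNA-seq in the longissimus dorsi, which runs along the back. Samples came from pigs aged 6 months, 3 with a UCP1 knock-in (KI) specific to adipocytes and 3 wild-type (WT). The genes were taken by symbol (semaphorins of classes 3 to 7, plexins, neuropilins, Eph receptors, ephrins, Robos, Slits, netrins and UNC5 receptors), and 53 of the 70 matching genes in a table of 30476 genes had at least 10 counts in at least 3 pigs. The KI pigs carry UCP1, the uncoupling protein of thermogenic fat, as a CRISPR/Cas9 knock-in directed to adipocytes, which the WT pigs do not carry, and muscle fibres are not the cells it was directed to. Sex, litter and founder of the pigs, and whether each numbered replicate is a separate animal, are not given in the sources used here, and because the tissue is a bulk sample, fewer cells of a type and less RNA per cell cannot be told apart in any value below. Each replicate is called a pig here.

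Guidance molecules were named for steering growing axons by attraction or repulsion. Semaphorins signal through plexins, with neuropilins as co-receptors of most secreted class 3 members, Slits through Robo receptors, and netrins through DCC, neogenin and UNC5 receptors, while ephrins, which stay on the cell surface, signal to Eph receptor tyrosine kinases on touching cells. In adult muscle the same families are known from motor nerve endings, blood vessels, connective tissue cells and muscle stem cells.

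Each library held between 30220951 and 35066624 counts on genes. Levels are given in CPM, counts scaled to a common library total with TMM factors. They are not divided by gene length and so are compared between pigs and not between genes. Values with ± are the mean and SD of the 3 pigs of a group, log2FC is the log2 fold change of UCP1 KI against WT pigs, and SE is its standard error. A count of 3, the limit that a count of 0 allows for counting error, corresponded to 0.0795 to 0.110 CPM. WT replicate 2 had the lowest TMM factor, 0.781, and 56.5% of its counts lay in its 20 most abundant genes, against 39.0% to 44.8% in the other pigs. *UCP1* was not among the symbols matched to the table, so the genotype labels were not checked against the targeted gene. The paper reports that its RNA-seq found no *UCP1* mRNA in the muscle of either group.

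Of the guidance genes, 44 stayed within the limits used when UCP1 KI muscle was set against WT muscle, and those outside were mainly lower in UCP1 KI pigs under TMM scaling. The limits were an unadjusted p under 0.05 in the quasi-likelihood test of edgeR and an absolute log2FC above 0.5, and 8.19% of all 13402 genes tested were past both. Of the 52 guidance genes tested, 8 were past both limits (15.4%). The single higher gene was the receptor *PLXNA2*, and the 7 lower genes were the ligands *SEMA3B*, *SEMA4C*, *SEMA6C* and *SLIT3* and the receptors *PLXNB3*, *EPHB3* and *ROBO1*. Over all genes, 3.84% were past the limits as higher and 4.34% as lower, and over the guidance genes 1.92% and 13.5%. The median log2FC was -0.28 over the 52 genes and -0.02 over all genes tested, and 29 of the 52 values were negative, against 51.3% of all genes. In DESeq2, 9 of the 52 were past the same limits, against 9.77% of all genes. After Benjamini-Hochberg adjustment over all genes, 0 of the 52 had a p under 0.05 by edgeR (smallest 0.583) or by DESeq2, where 8 and 9 had an unadjusted p under 0.05.

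The direction of this count depended on whether the libraries were scaled beyond their size, and the size of the count on single pigs. Median-of-ratios factors in place of TMM factors also gave 1 higher and 7 lower genes (1.92% and 13.5%), against 3.82% and 4.48% of all genes. With library size only, which raised the median of all genes to 0.24, the median of the guidance genes was -0.07, 28 of their values were negative, and 3 were past the limits as higher (*PLXNA2*, *EPHB6* and *SEMA7A*) and 1 as lower (*PLXNB3*), where 6.93% of all genes were higher and 1.46% lower. The 8 genes became 5 (9.26%) without UCP1 KI replicate 1, where 6.74% of all genes were past the limits, and 2 (3.70%) without UCP1 KI replicate 2, where 4.92% were. They became 4 without WT replicate 1 (7.55%, against 7.84% of all genes) and 4 without WT replicate 2 (7.41%, against 5.19%). Without WT replicate 3 there were 13 (24.5%), 12 of them lower, against 1541 of 13864 genes. The share of guidance genes was thus below that of all genes in the fits without UCP1 KI replicate 2 or WT replicate 1 and with library size only (7.69%, against 8.39%). *PLXNB3*, *ROBO1*, *SEMA3D* and *EPHA7* reached 10 counts in all 3 WT pigs and in fewer UCP1 KI pigs, so they entered the test through the group in which they were higher, and 2 of the 7 lower genes are among them. The opposite held for *NTN1*, *ROBO3* and *SEMA4A*, which reached 10 counts in all 3 UCP1 KI pigs and in fewer WT pigs, and none of these was past the limits. When the fit held only genes that reached 10 counts in all 6 pigs, 2 of 43 guidance genes were past the limits as higher (4.65%) and 5 as lower (11.6%), against 3.79% and 4.68% of all genes in that fit.

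**Figure D1:**
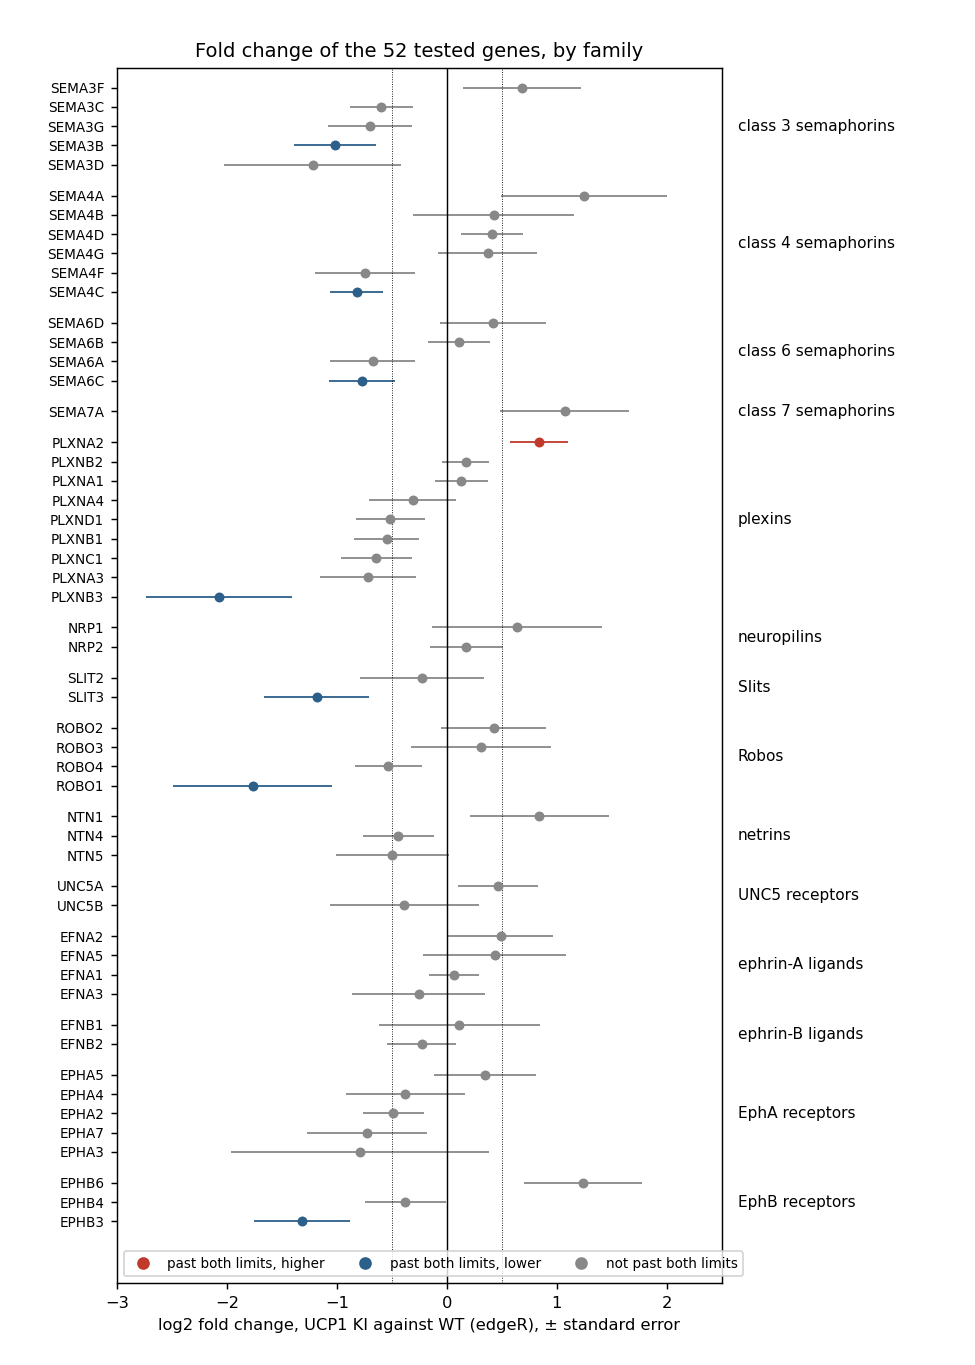
Log2FC (UCP1 KI against WT muscle) for each of the 52 tested guidance genes (x axis, points, with the SE as bars), grouped by family, with dotted lines at the limit of 0.5 on either side. The 7 lower genes past both limits lie between -2.07 and -0.77, and *PLXNA2* at 0.84 is the higher gene past them.

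The ligands included 27 tested genes, 0 past the limits as higher and 4 as lower, with a median log2FC of -0.23. Semaphorins supplied 16 of these, with 8 positive and 8 negative log2FC values under TMM scaling, and 3 of the negative ones were past both limits.

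*SEMA4C* (ENSSSCG00000008197, chromosome 3, 56750745 to 56760835 in Sscrofa11.1), a transmembrane semaphorin that binds plexin-B2 and takes part in myoblast differentiation, was at 11.8, 8.86 and 10.2 CPM in UCP1 KI replicates 1 to 3 and at 21.0, 16.7 and 16.8 CPM in WT replicates 1 to 3. No UCP1 KI pig reached the lowest WT pig. With means of 10.3 ± 1.49 and 18.2 ± 2.49 CPM the log2FC was -0.82 (SE 0.24, edgeR unadjusted p = 0.00980, adjusted p = 0.583). It remained past both limits whichever pig was omitted, at -0.93 to -0.70, but not with library size only, at -0.60.

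Because the scaling moved these calls, the share of each gene in the summed counts of its own family was also taken, a ratio within a library that no scaling can change, as a description without a test. *SEMA4C* made up 14.8% ± 1.86 of the counts on the 6 class 4 semaphorins in UCP1 KI pigs, against 29.0% ± 3.88 in WT pigs, again without overlap. A lower share shows unequal change within the class, and under TMM scaling the other class 4 genes had values of both signs. *SEMA4D*, the class 4 gene with the most counts and a ligand of plexin-B1, was at 47.0 ± 12.7 CPM against 35.3 ± 7.99 CPM, a log2FC of 0.41 (SE 0.28) that was not past the limits. *SEMA4A* had the highest log2FC of the class, 1.25, with an SE of 0.76 and levels of 2.26, 3.79 and 1.09 CPM against 1.16, 1.64 and 0.2002 CPM. Its groups overlapped, and it is among the genes that reached 10 counts in all pigs of the UCP1 KI group only.

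*SEMA6C* (ENSSSCG00000006635, chromosome 4, 98107316 to 98121464), a transmembrane class 6 semaphorin, was at 62.6, 39.6 and 58.8 CPM in UCP1 KI pigs, against 120.8, 71.5 and 82.7 CPM in WT pigs. The groups did not overlap, although the highest UCP1 KI pig and the lowest WT pig were close. It had a log2FC of -0.77 (SE 0.30, unadjusted p = 0.0331 from edgeR), and it was not past the limits without UCP1 KI replicate 2, UCP1 KI replicate 3 or WT replicate 1. Among the 4 class 6 semaphorins it held 57.9% to 69.2% of the counts in UCP1 KI pigs, against 63.5% to 78.0% in WT pigs, so that these shares overlapped. *SEMA6A*, a ligand of plexin-A2 and plexin-A4, was at 13.2, 16.0 and 14.9 CPM in UCP1 KI pigs and more widely spread in WT pigs, at 33.8, 25.3 and 11.2 CPM. Its value of -0.67 (SE 0.39) was past the limits under 1 alternative, without WT replicate 3, at -1.005, and was -0.33 without WT replicate 1.

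*SEMA3B* (ENSSSCG00000011400, chromosome 13, 32737100 to 32749633), a secreted semaphorin that acts through neuropilins, was at 3.78, 2.30 and 4.82 CPM in UCP1 KI pigs, against 6.53, 9.93 and 5.57 CPM in WT pigs. All UCP1 KI pigs were lower than all WT pigs. It had a log2FC of -1.01 (SE 0.37, unadjusted p = 0.0277 from edgeR) and was no longer past the limits without UCP1 KI replicate 1, UCP1 KI replicate 2 or WT replicate 2. Its share of the class 3 counts overlapped, at 4.39% to 9.36% against 7.49% to 12.3%. *SEMA3F* lies 65.9 kb away on the same chromosome and also codes for a secreted ligand. Its levels were 23.7, 17.2 and 7.28 CPM against 4.96, 16.0 and 9.04 CPM, with overlapping groups and a log2FC of 0.68 (SE 0.54), which became 1.19 without WT replicate 2, or 0.29 when UCP1 KI replicate 1 was omitted.

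The class 3 genes *SEMA3C*, *SEMA3D* and *SEMA3G* had negative log2FC values without passing the limits. *SEMA3C*, a secreted ligand of neuropilins and plexin-D1, was at 17.8, 16.8 and 10.01 CPM in UCP1 KI pigs, against 25.3, 18.8 and 23.1 CPM in WT pigs. These groups did not overlap, and the log2FC was -0.59 (SE 0.29, unadjusted p = 0.0739 from edgeR). *SEMA3G*, a semaphorin known from endothelial cells, had -0.70 (SE 0.38) with overlapping groups. It passed the limits without WT replicate 3, at -0.97, and was at -0.36 without WT replicate 1. *SEMA3D* had -1.22 (SE 0.81) at 0.262 ± 0.226 CPM against 0.621 ± 0.288 CPM.

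*SEMA7A*, the membrane-anchored ligand of plexin-C1 and of an integrin, varied widely among the UCP1 KI pigs. It was at 53.6, 44.7 and 9.67 CPM in UCP1 KI pigs, against 16.0, 11.5 and 23.8 CPM in WT pigs. UCP1 KI replicate 3 was below every WT pig, and the other two were above them all. The log2FC of 1.07 (SE 0.59) was not past the limits, and it was past them without UCP1 KI replicate 3, at 1.53, and with library size only, at 1.26. Without UCP1 KI replicate 1 it was 0.67.

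Among the Slits, secreted repellents that bind Robo receptors, *SLIT3* (ENSSSCG00000017012, chromosome 16, 54551536 to 55221427) was at 1.81, 1.04 and 1.24 CPM in UCP1 KI pigs, against 2.51, 5.003 and 1.80 CPM in WT pigs. UCP1 KI replicate 1 and WT replicate 3 were nearly level, so the groups overlapped. *SLIT3* had a log2FC of -1.18 (SE 0.48, unadjusted p = 0.0399 from edgeR), and WT replicate 2 carried much of it, since without that pig it was -0.66 and not past the limits. With 1 pig omitted at a time, it was past the limits in 2 of the 6 fits, those without UCP1 KI replicate 1 or WT replicate 3. Its share of the Slit counts also overlapped, at 43.5% to 83.6% against 64.1% to 79.7%. *SLIT2*, at 0.912 ± 0.506 CPM against 1.07 ± 0.244 CPM, had a log2FC of -0.23 (SE 0.56) that changed sign without UCP1 KI replicate 1, to 0.16, and with library size only, to 0.091.

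Netrins and ephrins held 0 genes past the limits. *NTN4*, a laminin-related netrin of basement membranes, had a mean of 20.7 ± 6.07 CPM with the knock-in and 28.1 ± 8.11 CPM without it, a log2FC of -0.44 (SE 0.32) with overlapping groups. The 4 tested ephrin-A genes and 2 ephrin-B genes had log2FC values between -0.25 and 0.49, the latter for *EFNA2* (SE 0.48). *EFNA1*, the ligand of EphA2, was at 36.2 ± 5.43 CPM against 34.6 ± 4.99 CPM, and its log2FC was 0.07 (SE 0.23). *EFNB2*, an arterial ligand of EphB4, was at 6.00 ± 1.10 CPM against 7.02 ± 2.21 CPM, a log2FC of -0.23 (SE 0.31).

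**Figure D2:**
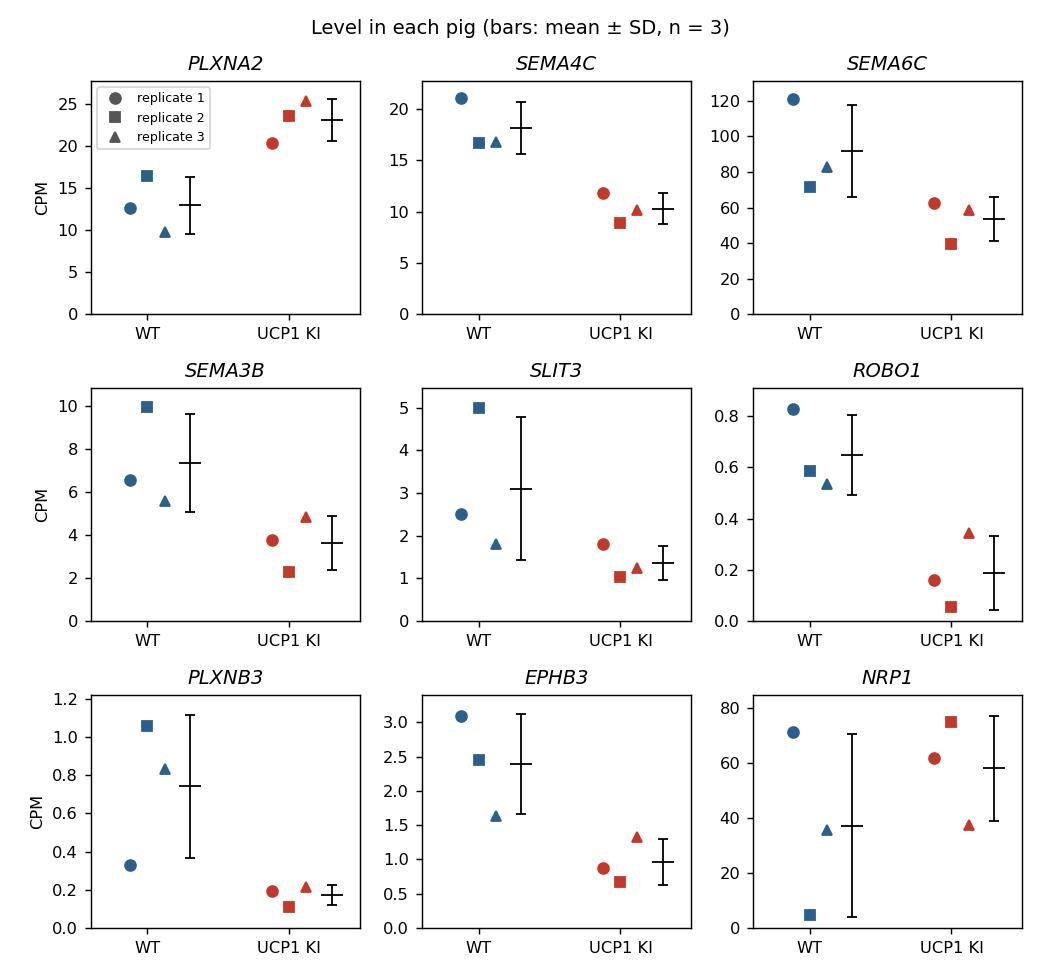
CPM (y axis, from 0) in each of the 3 WT pigs (blue) and 3 UCP1 KI pigs (red) for the 8 guidance genes past both limits and for *NRP1*, with symbols for the replicate number and bars for the mean ± SD. Groups do not overlap for 7 of the 8 genes, *SLIT3* overlaps, and *NRP1* in WT replicate 2 lies at 4.78 CPM.

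On the receiving side 25 receptor genes were tested, of which 1 was past the limits as higher and 3 as lower, with a median log2FC of -0.38. *PLXNA2* (ENSSSCG00000026412, chromosome 9, 134584760 to 134800471), a receptor of class 6 semaphorins and, with neuropilin-1, of SEMA3A, was at 20.4, 23.6 and 25.3 CPM in UCP1 KI pigs, against 12.7, 16.4 and 9.74 CPM in WT pigs. All 3 UCP1 KI pigs exceeded the highest WT pig. Mean levels of 23.1 ± 2.502 CPM and 12.9 ± 3.34 CPM gave a log2FC of 0.84 (SE 0.26, edgeR unadjusted p = 0.0141, adjusted p = 0.583). *PLXNA2* was past both limits under all 13 alternatives to the fit, including the omission of any 1 pig (0.67 to 1.04) and with library size only (1.12). It took 59.5% ± 5.38 of the counts on the 4 class A plexins in UCP1 KI pigs, against 44.3% ± 7.61 in WT pigs, and the shares did not overlap.

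The sister plexins of class A were not past the limits. *PLXNA1* had a log2FC of 0.13 (SE 0.25), *PLXNA3* of -0.72 (SE 0.44) and *PLXNA4* of -0.31 (SE 0.40), each with overlapping groups. Without WT replicate 1 the value of *PLXNA3* was -0.23, and without WT replicate 3 it was past the limits, at -1.01.

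*PLXNB3* (ENSSSCG00000012780, chromosome X, 124507953 to 124522780), a receptor of SEMA5A, had 6, 4 and 8 counts in UCP1 KI pigs, against 12, 29 and 25 counts in WT pigs. These low counts did not overlap and corresponded to 0.173 ± 0.0532 CPM and 0.741 ± 0.373 CPM. The log2FC of -2.07 (SE 0.67, unadjusted p = 0.0154 from edgeR) was the lowest of the 52 genes and was not past the limits without WT replicate 2, WT replicate 3 or UCP1 KI replicate 2. Its share of the class B plexin counts did not overlap, at 0.218% to 0.382% against 0.555% to 2.17%. *PLXNB3* reached 10 counts in 0 UCP1 KI pigs and in all 3 WT pigs. It thus entered the test through the WT pigs, and the share rests on the same few counts. The ligand gene *SEMA5A* was below the count rule, with 0, 2 and 12 counts in UCP1 KI pigs, against 6, 5 and 16 in WT pigs.

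*PLXNB2*, a receptor of *SEMA4C* and the plexin with the most counts, had a mean of 43.8 ± 5.02 CPM with the knock-in and 38.8 ± 4.03 CPM without it, a log2FC of 0.17 (SE 0.21) with overlapping groups. *PLXNC1*, the receptor of *SEMA7A*, was at 2.39, 1.74 and 1.83 CPM in UCP1 KI pigs, against 3.64, 2.81 and 2.84 CPM in WT pigs. Its groups did not overlap, and the log2FC of -0.64 (SE 0.32, unadjusted p = 0.0846 from edgeR) was not past the limits.

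Neuropilins are co-receptors for class 3 semaphorins and for VEGF. *NRP1* (ENSSSCG00000011102, chromosome 10, 56280673 to 56430832) was at 61.8, 75.0 and 37.5 CPM in UCP1 KI pigs, against 71.1, 4.78 and 35.7 CPM in WT pigs. WT replicate 2 was 7.47-fold below the lowest of the other 5 pigs, with 131 counts against 1071 to 2675. Of 4818 genes with at least 10 CPM in each of the other 5 pigs, 18 (0.374%) were below 0.2 of the lowest of them in WT replicate 2, and 6 to 10 such genes were found in each of the other libraries. *NRP2*, with a log2FC of 0.18 (SE 0.34) that turned to -0.094 without UCP1 KI replicate 2, was at 11.3 CPM in WT replicate 2. This was within the range of the other pigs, and so was the summed level of 9 endothelial marker genes, at 619.9 CPM in that pig and between 399.9 and 769.2 CPM in the other pigs. The log2FC of *NRP1* was 0.64 (SE 0.78) with all pigs, 0.12 without WT replicate 2 and 1.53 without WT replicate 1. *NRP1* held 81.1% to 87.3% of the neuropilin counts in 5 pigs and 29.7% in WT replicate 2.

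**Figure D3:**
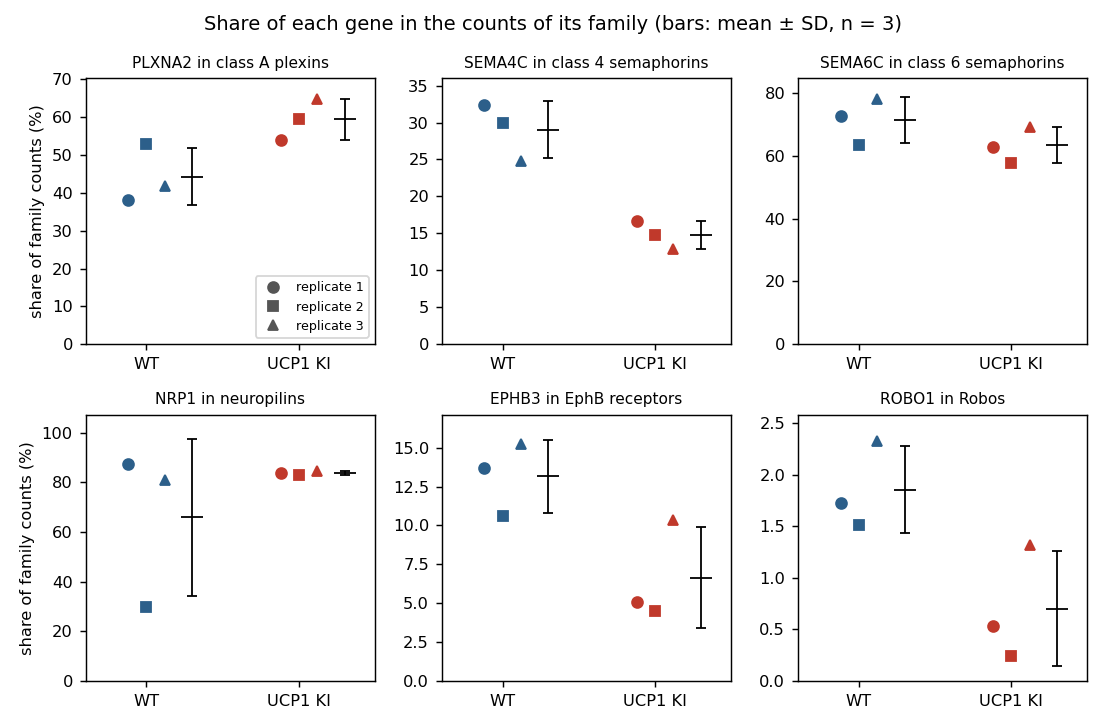
Share of a gene in the summed counts of its family (y axis, percent, from 0) in each WT pig (blue) and UCP1 KI pig (red), with bars for the mean ± SD. Shares do not overlap for *PLXNA2*, *SEMA4C*, *EPHB3* and *ROBO1*, they overlap for *SEMA6C*, and the *NRP1* share is 29.7% in WT replicate 2.

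Of the Eph receptors, 8 could be tested and 1 was past the limits. *EPHB3* (ENSSSCG00000026516, chromosome 13, 122467561 to 122488296), a receptor of ephrin-B ligands, was at 0.873, 0.673 and 1.32 CPM in UCP1 KI pigs, against 3.09, 2.45 and 1.64 CPM in WT pigs. The groups did not overlap. It had a log2FC of -1.32 (SE 0.44, unadjusted p = 0.0183 from edgeR) and was not past the limits without UCP1 KI replicate 1, UCP1 KI replicate 2 or WT replicate 1. Its share of the counts on the 5 EphB genes was 4.49% to 10.4% in UCP1 KI pigs, against 10.6% to 15.2% in WT pigs.

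*EPHB6*, an Eph receptor without kinase activity, had the opposite sign. It was at 1.88, 3.59 and 0.980 CPM in UCP1 KI pigs, against 0.827, 1.10 and 0.801 CPM in WT pigs, where UCP1 KI replicate 3 lay inside the WT range. The log2FC was 1.24 (SE 0.54), and the unadjusted p of 0.0503 from edgeR just missed the limit, while DESeq2 gave 0.0385. Without UCP1 KI replicate 2 the value was 0.65. Another annotated gene, *TRPV6*, overlaps the *EPHB6* locus in the RefSeq annotation of the same assembly, and since the strand setting of the counting is not given, reads of such neighbours could not be told apart. *EPHA2*, at 7.89 ± 0.711 CPM against 11.0 ± 2.83 CPM, and *EPHB4*, the venous partner of ephrin-B2, at 11.7 ± 2.24 CPM against 15.2 ± 6.34 CPM, had log2FC values of -0.49 and -0.38. These were past the limits without WT replicate 3, at -0.67 and -0.68, and were -0.31 and -0.16 without WT replicate 2.

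*ROBO1* (ENSSSCG00000012001, chromosome 13, 175348223 to 176479482), a receptor of SLIT2 and SLIT3, had 5, 2 and 13 counts in UCP1 KI pigs, against 30, 16 and 16 counts in WT pigs. The groups did not overlap, although UCP1 KI replicate 2 was under the limit of 3 counts, and *ROBO1* entered the test through the WT pigs. In CPM these were 0.187 ± 0.146 and 0.648 ± 0.157, and the log2FC of -1.76 (SE 0.72, unadjusted p = 0.0416 from edgeR) was past the limits in 1 of the 6 fits that left out a pig, the fit without UCP1 KI replicate 3. *ROBO2*, which lies on the same chromosome, had 0.43 (SE 0.48). *ROBO4*, the Robo of endothelial cells, was at 26.9, 20.4 and 22.4 CPM in UCP1 KI pigs, against 43.6, 35.7 and 21.4 CPM in WT pigs. WT replicate 3 was inside the range of the UCP1 KI pigs. The log2FC of -0.53 (SE 0.30) was past the limits without that pig, at -0.77, and was -0.31 without WT replicate 1.

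The UNC5 receptors tested were *UNC5A*, at 8.10 ± 2.79 CPM against 5.87 ± 1.69 CPM with a log2FC of 0.46 (SE 0.36), and *UNC5B*, with -0.39 (SE 0.67), which turned to 0.32 without WT replicate 1. Both overlapped between the groups. Of the netrin receptors outside the UNC5 family, *NEO1*, the gene of neogenin, was at 6.79 ± 0.533 CPM against 9.49 ± 3.42 CPM, a log2FC of -0.48 (SE 0.32). This was past the limits without WT replicate 2, at -0.72, and was -0.19 without WT replicate 3. *DCC*, the attractive netrin receptor, had at most 4 counts in any pig.

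Known pairs of ligand and receptor were also set side by side, under TMM scaling. The log2FC was -0.82 for *SEMA4C* and 0.17 for *PLXNB2*. It was 1.07 for *SEMA7A* and -0.64 for *PLXNC1*, of which neither was past the limits. For *SEMA4D* and *PLXNB1* it was 0.41 and -0.55. *SEMA4D* was at 0.17 without UCP1 KI replicate 3, and *PLXNB1* at -0.25 without WT replicate 1 and, past the limits, at -0.75 without WT replicate 3. For *SEMA6A* and *PLXNA2* the log2FC was -0.67 and 0.84. *SLIT3* and *ROBO1* were at -1.18 and -1.76, and *EFNA1* and *EPHA2* were at 0.07 and -0.49. Both values were negative, and not past the limits, for *SEMA3C* and *PLXND1*, at -0.59 and -0.51, and for *EFNB2* and *EPHB4*, at -0.23 and -0.38. *PLXND1* (SE 0.31) overlapped between the groups and was at -0.18 without WT replicate 1. The difference between partners was not tested.

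Over all guidance genes tested, 11 (21.2%) had no overlap between UCP1 KI and WT pigs, 1 higher and 10 lower in UCP1 KI pigs. Over all genes tested 15.3% did not overlap, 7.59% as higher and 7.69% as lower. Beside the genes past the limits these were *SEMA3C*, *SEMA4F*, *PLXNC1* and *EPHA7*. Of the 10 lower genes, *PLXNB3*, *ROBO1* and *EPHA7* entered the test through the WT pigs, in which they were higher, so the share of 21.2% is not read against that of all genes. Of the 8 genes past both limits, *PLXNA2* and *SEMA4C* (25%) were past them in all 6 fits that left out a pig, a share near the 26.9% of the 1097 genes past the limits for which this held (295 genes, 2.20% of all tested).

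**Figure D4:**
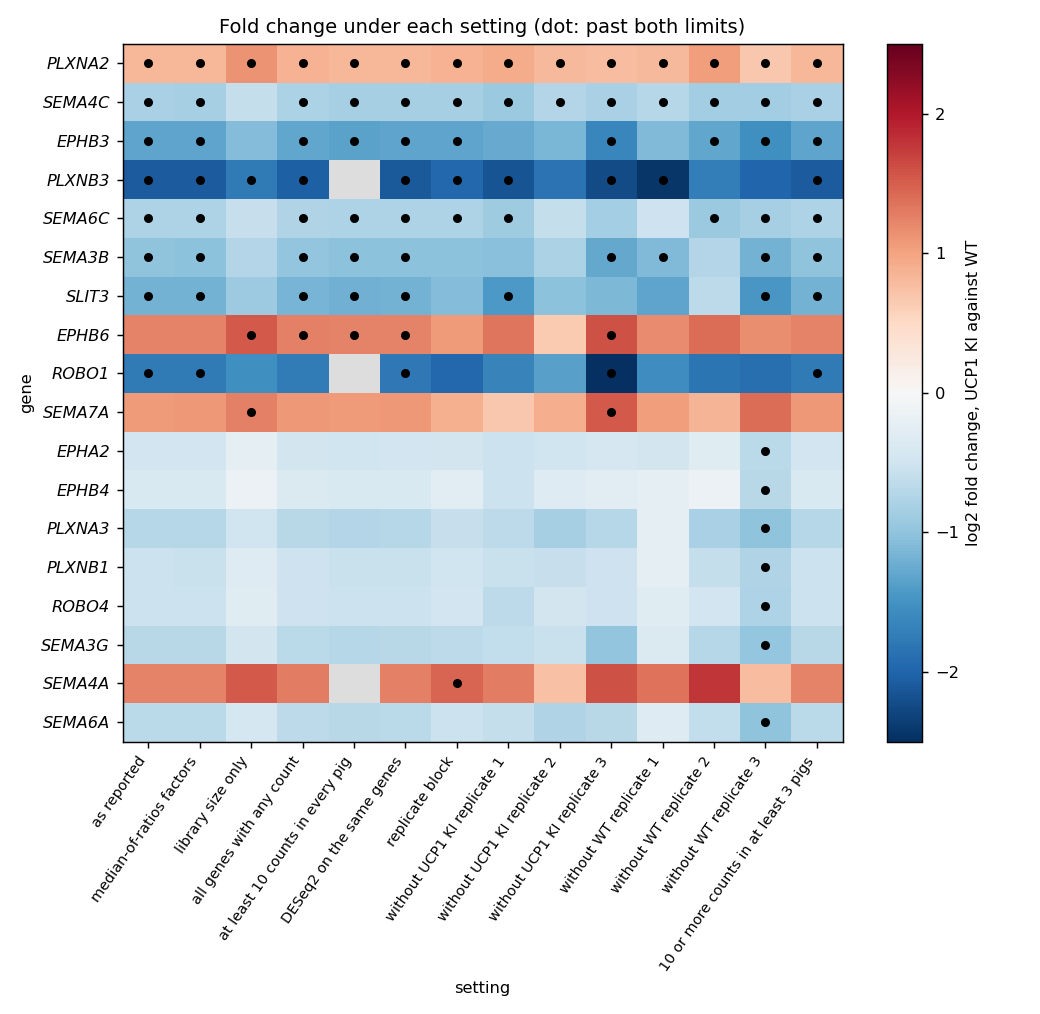
Log2FC (colour, red higher and blue lower in UCP1 KI pigs) for the 18 guidance genes past both limits under at least 1 setting (rows) under each setting (columns), with a dot where a gene is past both limits and grey where it was not fitted. *PLXNA2* has a dot in every column, *SEMA4C* in all but library size only, and the column without WT replicate 3 has the most dots, 13.

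Further receptors, co-receptors and intracellular effectors of axon guidance were taken from a list of 134 symbols, of which 110 could be tested. Of these, 10 (9.09%) were past both limits, 5 higher and 5 lower, a share close to the 8.19% of all genes, and their median log2FC was -0.06. With library size only, 11 (10%) were higher and 1 (0.909%) lower, against 6.93% and 1.46% of all genes. Leaving out UCP1 KI replicate 2 gave 4 such genes (3.57%, against 4.92% of all genes), and leaving out WT replicate 3 gave 20 (17.9%, against 1541 of 13864 genes).

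Among the 5 higher genes was *PIK3CA*, the catalytic subunit of a phosphoinositide 3-kinase, which was at 22.0 ± 7.43 CPM against 8.60 ± 2.22 CPM, a log2FC of 1.35 (SE 0.33), past the limits whichever pig was omitted. Further higher genes were *MYL12A*, a myosin regulatory light chain, at 1.10, *RAC2*, a Rac GTPase of blood cells, at 1.14, and *GSK3B*, a kinase that regulates microtubule proteins in axons, at 0.94. *MYL12A* was not past the limits without UCP1 KI replicate 1, UCP1 KI replicate 2 or WT replicate 1, nor *GSK3B* without WT replicate 2, WT replicate 3 or UCP1 KI replicate 2. With 1 pig omitted, *RAC2* was past them in 2 of 6 fits, those without UCP1 KI replicate 3 or WT replicate 1.

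The lower genes included *FARP2*, an exchange factor that binds plexin-A1, at 4.46 ± 0.487 CPM against 6.99 ± 1.061 CPM. *ROCK2*, a kinase that acts on the cytoskeleton, was at 51.7 ± 15.3 CPM against 88.4 ± 9.88 CPM. Their log2FC values were -0.65 (SE 0.26) and -0.77 (SE 0.29), and in neither did the groups overlap. *NFATC2*, a calcineurin-dependent transcription factor, had a log2FC of -1.74 (SE 0.57), *MYO9B*, an unconventional myosin, of -0.98 (SE 0.36) and *CXCL12*, a chemokine of stromal cells that also guides axons, of -0.82 (SE 0.34). *NFATC2* was not past the limits without WT replicate 2, nor *ROCK2* without WT replicate 1, WT replicate 3 or UCP1 KI replicate 3. Of the 6 fits that left out a pig, 2 had *MYO9B* past the limits (without UCP1 KI replicate 3 or WT replicate 3), 2 had *CXCL12* (without UCP1 KI replicate 3 or WT replicate 1) and 1 had *FARP2* (without WT replicate 3).

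Markers of the cells that a muscle sample holds were read in the same libraries, and their part in the values above was not tested. Of 8 fibroblast markers 7 were found, 4 were past the limits as lower and 0 as higher, and their summed level was 250.6 to 443.7 CPM in UCP1 KI pigs, against 748.7 to 1201 CPM in WT pigs, without overlap. Without the 3 collagen genes among them the other 4 summed to 132.6 to 152.5 CPM against 150.0 to 208.2 CPM, which overlapped. The 6 mural cell markers summed to 255.9 to 348.7 CPM against 304.2 to 682.2 CPM with 1 lower past the limits, and the 4 satellite cell markers to 38.4 to 43.0 CPM against 44.0 to 107.5 CPM with 0 past them. Most of the satellite cell sum was *CD34*, at 32.8 ± 3.29 CPM against 58.4 ± 34.0 CPM with overlapping groups. *PAX7*, *CALCR* and *MYF5* also overlapped, with log2FC values of -0.49, -0.74 and 0.47. Endothelial markers overlapped, at 427.6 to 769.2 CPM against 399.9 to 741.1 CPM, with 1 of 9 past the limits, as higher. Lymphatic markers were at 29.8 to 55.4 CPM against 19.7 to 30.9 CPM, with 1 of 4 higher and 1 lower past the limits. Most of this sum was the higher gene, *PDPN*, at 33.8 ± 11.6 CPM against 17.7 ± 6.38 CPM. The rest of the list had negative log2FC values, *FLT4* of -1.16 (past the limits), *LYVE1* of -0.57 and *PROX1* of -0.53, and the median was -0.55.

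Markers of Schwann cells, which wrap the motor axons, were at 263.9 to 302.2 CPM in UCP1 KI pigs, against 199.1 to 390.8 CPM in WT pigs, with 0 of 8 past the limits. Genes of the neuromuscular junction and of denervation were at 118.6 to 175.4 CPM against 52.6 to 151.0 CPM, with 1 of 6 past them, *RUNX1*, as higher. Adipocyte markers were at 66.2 to 131.6 CPM against 69.0 to 297.1 CPM and leukocyte markers at 532.0 to 975.7 CPM against 500.9 to 1011 CPM, each with 1 gene higher past the limits. For adipocytes this was *LIPE*, at a log2FC of 1.12, while the other 4 tested adipocyte markers had negative values that did not pass the limits, and the median was -1.13. Muscle fibre markers found by symbol, *ACTA1*, *CKM* and *DES*, summed to 44298 to 72296 CPM against 58938 to 70953 CPM, and no marker found in any of these lists was at 0 in all pigs.

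In the RefSeq annotation, 13 of the 52 tested loci overlap another annotated gene, among them *SLIT3*, *NRP1*, *PLXNB1* and *PLXNC1*. The remaining 18 genes could not be tested. *EFNA4* met the count rule but was left out by the filter of edgeR, with 12, 2 and 6 counts in UCP1 KI pigs, against 16, 4 and 10 in WT pigs. *EPHA6*, *EPHA8*, *EPHA10* and *UNC5D* had no count in any pig. *EFNB3* had 4, 16 and 0 counts in UCP1 KI pigs and 0 in each WT pig, and *UNC5C* had 11, 0 and 2 counts and 0 in each WT pig. *SEMA3E*, a ligand of plexin-D1, was counted 2 times in each UCP1 KI pig and 11, 8 and 0 times in WT pigs, and *SEMA5B* 0, 2 and 0 times against 10, 5 and 4 times. *EPHB2* had 3, 4 and 5 counts against 18, 1 and 5. *SEMA3A*, *SEMA5A*, *SLIT1*, *NTN3*, *NTNG1*, *NTNG2*, *EPHA1* and *EPHB1* had at most 16 counts in any pig, and the groups were not compared.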

How the data were processed

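Skeletal muscle RNA of UCP1 KI and WT pigs was sequenced as paired ends in 6 libraries, 3 replicates a group. Per the labels and the methods of the study, the authors trimmed reads with Trimmomatic 0.36, mapped them with HISAT2 2.0 to Sscrofa11.1 and computed expression with StringTie 1.3.3b. The authors deposited raw counts per Ensembl gene. The counting program, its strand setting and the annotation release are not given in the sources used here.

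Counts of all genes were fitted in edgeR 4.0.16 (R 4.3.3) with filterByExpr, TMM factors and genotype as the only term, and tested with the two-sided quasi-likelihood F test, with Benjamini-Hochberg adjustment over 13402 genes. The standard error is the size of the log2 fold change divided by the square root of F. The limits of p and fold change are those of the study. Alternatives were DESeq2 1.42.0, median-of-ratios factors, library size only, other filters, no fold change limit, the replicate number as a block and each pig left out.

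Named were all members past both limits, the most counted and the lowest-p other member of each family, their known partners, members not tested, and up to 10 effector genes past the limits, of which 1 is not reported here. *PLXNA1*, *PLXNA3*, *PLXND1*, *SEMA3D*, *SEMA3F*, *NRP2*, *NTN1*, *ROBO2*, *ROBO3*, *UNC5B*, *RUNX1* and *LIPE* were named as relatives or partners after their values were seen. So were the named lymphatic and satellite cell markers and genes whose groups did not overlap. The family shares, the count of genes low in 1 pig and the filter of 10 counts in at least 3 pigs were also added then. Members and lists were chosen with earlier results of these data known. Symbols came from an Ensembl name table, and positions from the RefSeq annotation of Sscrofa11.1, in which all 70 symbols were found. Of the 134 effector symbols 128 were found. No 2 columns were identical, and 0 columns were left unused. Since the labels number replicates without naming animals, p-values measure only the spread between these samples, which may be technical.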

Additional observations from a re-analysis of the deposited data

How the results depend on the processing

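Under the alternatives run, the count of 8 guidance genes past both limits became 4 with library size only and spanned 2 to 13 over the 6 fits that omitted a pig. The median log2 fold change of the guidance genes spanned -0.50 to -0.12 over those fits and was negative under every alternative. The count of effector genes, 10, lay between 4 and 20, and that of all genes, 1097, between 678 and 1541. With library size only, 929 of all genes were higher and 195 lower, in place of 515 and 582. DESeq2 gave 127 of all genes an adjusted p under 0.05, where edgeR gave 0 (1100 at an unadjusted p under 0.05). Of 477 values of 37 named genes under the alternatives, 393 kept direction and side of the limits, 66 lost the call and 13 gained it, and 5 changed sign, namely *EFNA1* (from -0.035 without WT replicate 3, and -0.034 without UCP1 KI replicate 1, to 0.17 over the fits that omitted a pig), *EFNB2* (-0.38 to 0.057, the latter without WT replicate 1) and *SLIT2* (0.091 with library size only, and -0.64 to 0.16, the latter without UCP1 KI replicate 1). Without WT replicate 2, 718 of all genes were past the limits, and 678 without UCP1 KI replicate 2. The cause was not tested. Of the 52 guidance genes tested, 12 had values of both signs over the fits that omitted a pig, 0 of them past the limits in the full fit. Beside those just named these were *EFNA3*, *EFNA5*, *EFNB1*, *NRP2*, *ROBO3*, *SEMA4B*, *SEMA6B*, *SEMA6D* and *UNC5B*.

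Same-numbered pigs of the groups deviated together with correlations of 0.02, 0.07 and 0.24, and not every pig correlated best with its own number, so the numbers were not taken to pair them. With the replicate block, 6 guidance genes, 12 effector genes and 1114 of all genes were past the limits. Depth limits *PLXNB3*, *ROBO1* and the genes below the count rule, where a few reads decide the value.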
